A study of Mus musculus with 6 samples.

Results

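The transcripts of 9 transcription factors that pattern the pallium, the dorsal telencephalon, were followed in RNA-seq libraries of the rostral-most telencephalic primordium at E11.5. The factors are Emx1, Emx2, Pax6, Lhx2, Nr2f1, Nr2f2, Sp8, Dmrta2 and Dmrt3. They were chosen by name and are 9 of the 55471 genes in the count tables. All 9 were tested, among the 17128 genes that received an adjusted p.

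There were 3 control and 3 Rx-Dicer samples, and the comparison asked how the transcriptome of this tissue differs when Dicer, the enzyme that releases mature miRNAs from their precursors, is lost early. Every embryo carried floxed Dicer (Dicer1tm1Bdh/J, kept on a C57BL/6 background). Control embryos were Dicer F/F without Cre, although their genotype label reads WT. Rx-Dicer embryos were Dicer F/F with Rx-Cre, a transgene of a line named Rx3-Cre and kept on a CD1 background, in which Cre follows the regulatory sequences of Rax. From its reporter crosses the study describes recombination at this age as highest in rostral and ventral telencephalon and lower in the neocortex. The dissected piece is rostral. Dicer need not be lost from every cell of it, which was not tested here. Nothing in the labels tells whether a library came from a single embryo or from several, and p-values here measure the spread between these samples, which may be technical in part.

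These factors belong to a system that tells a progenitor cell where in the telencephalon it lies. Signals leave the margins of the pallium, with Fgf8 and related FGFs from the rostral midline and Wnt and Bmp proteins from the cortical hem at the caudal and medial edge, and neuroepithelial cells answer with graded levels of transcription factors. Sp8 is high rostrally and medially, Pax6 rostrally and laterally, Emx2 and the Dmrt genes caudally and medially, and Nr2f1 caudally and laterally, while Lhx2 selects cortical over midline fate and Nr2f2 is high in caudal and ventral territory. In bulk tissue a lower count can mean fewer cells of a type or less RNA per cell, and these cannot be told apart.

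The libraries held 34471501 to 48373468 counts on genes, so 3 counts correspond to 0.062 to 0.087 CPM, a count scaled to a common library total. This is a floor that covers counting error only. The 95% intervals given below for log2 fold changes come from the DESeq2 standard errors and take in the spread between samples. The least abundant factor in any library, Dmrt3 in control 3, still had 191 reads. Emx1, which marks the dorsal telencephalon, was at 921 to 5286 normalised counts (read counts divided by each library's DESeq2 size factor), and Dlx2, which marks the ventral telencephalon, at 717 to 4079, so transcripts of both territories were present in every library. Dicer1 was at 6355, 7070 and 6270 normalised counts in controls and 4777, 7002 and 4644 in Rx-Dicer samples, counts that include reads from exons outside the floxed segment. The library labelled Rx-Dicer 2 was at the level of the controls, so fits without it are given below for the factors and for the list genes that were called.

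Among the factors, Pax6 was lower in Rx-Dicer libraries and the other 8 did not pass the test in either direction. A gene was called when the DESeq2 adjusted p, over all genes tested, was under 0.05 and the log2 fold change beyond 0.32 in size, which is a rise of 25% or its inverse. This rule called 1 of 9 factors, against 2.93% of all tested genes in either direction and 1.18% in the lower direction. The edgeR quasi-likelihood test called 0 of 9 factors, against 0.0446% of its genes. At an unadjusted p under 0.05 each tool had 1 of 9, against 13.1% of all tested genes by DESeq2 and 12.9% by edgeR. The median log2 fold change of the 9 factors was 0.01, and that of all tested genes was -0.0009. Pax6 was also the sole factor whose Rx-Dicer values all lay on a single side of the control values, a pattern found in 19.3% of tested genes.

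**Figure D1:**
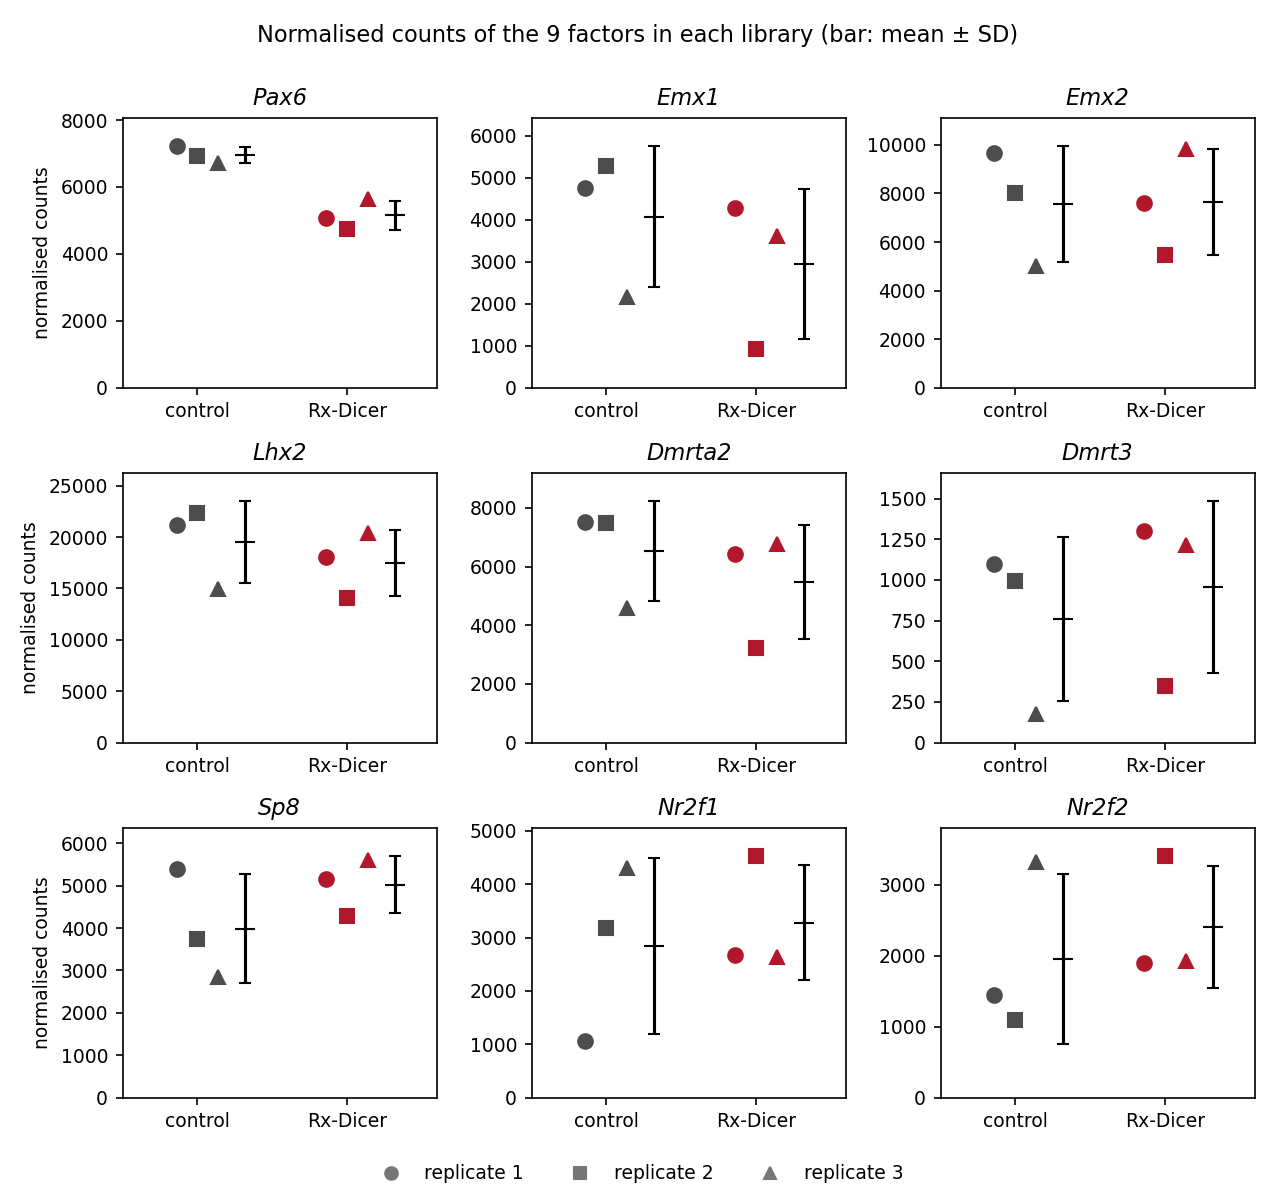
Normalised counts (vertical axes, starting at 0) of the 9 factors in the 3 control (grey) and 3 Rx-Dicer (red) libraries, with marker shape for the replicate number and bars for mean ± SD (n = 3). Pax6 is tight within each genotype, at 6726 to 7210 in controls against 4749 to 5629 in Rx-Dicer libraries, whereas the genotypes overlap for each of the other 8.

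Pax6, a paired and homeodomain factor that drives the neurogenic programme of cortical progenitors, had 7210, 6927 and 6726 normalised counts in controls and 5064, 4749 and 5629 in Rx-Dicer libraries. Every Rx-Dicer library was below every control. The means were 6954 ± 243 (SD, n = 3) and 5147 ± 446 (n = 3), a 1.35-fold higher level in controls. The log2 fold change was -0.43 ± 0.12 (SE), with a 95% interval from -0.66 to -0.21 and a DESeq2 adjusted p of 0.0127. By edgeR's quasi-likelihood test the same difference of -0.43 had an adjusted p of 0.144. Pax6 is also a gene that the study names in its own account of these libraries, so it is no independent choice.

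The Pax6 call was near its threshold while its size was steady. Leaving out each library in turn gave log2 fold changes from -0.50 to -0.37. The call was lost without control 2, where the DESeq2 adjusted p was 0.0553 and 1.53% of all tested genes were called. Without the library labelled Rx-Dicer 2 the difference was -0.37 with a DESeq2 adjusted p of 0.0153. With control 3 and the library labelled Rx-Dicer 2 both left out, a choice made after the data had been seen, it was -0.40 with a DESeq2 adjusted p of 0.117, in a fit that called 2.17% of genes.

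Markers of ventral and hypothalamic cells moved with the genotype in which Pax6 was lower. Of 12 subpallial markers, genes of the ventral telencephalon, 2 were called higher in Rx-Dicer libraries and 0 lower, against 1.75% of tested genes called higher. These were Lhx6, at 47.8 ± 5.32 normalised counts in controls and 146 ± 50.3 in Rx-Dicer libraries (mean ± SD, n = 3 each), and Lhx8, at 20.2 ± 12.4 and 120 ± 57.3. The ventral marker Nkx2-1 was at 3.66, 51.9 and 192 in controls against 682, 1882 and 1307 in Rx-Dicer libraries, with a DESeq2 adjusted p of 0.0549. The summed level of the subpallial list overlapped between genotypes, at 165 to 344 CPM in controls and 151 to 531 CPM in Rx-Dicer libraries, and no marker of the list was at 0 in any library. Of 12 hypothalamic and optic markers, 9 were tested, 3 were called higher (Vax1, Otp and Fezf1, the last also in a list below) and 1 lower (Pomc). Their sum was 43 to 53.3 CPM in controls and 72.3 to 89.7 CPM in Rx-Dicer libraries, with Vax2, Nkx2-2, Nkx2-4 and Six6 at 0 in at least 1 library. Of 6 microglial markers 2 were called higher (Cx3cr1 and Csf1r), and their sum was 23.1 to 27.4 CPM in controls and 27.6 to 90.3 CPM in Rx-Dicer libraries. By edgeR's quasi-likelihood test 0 markers of these 3 lists were called. At an unadjusted p under 0.05 there were 5 of 12, 6 of 9 and 5 of 6 tested, against 12.9% of all genes by edgeR. The same share applies to the edgeR counts of the lists below. Without the library labelled Rx-Dicer 2, Lhx6 (1.39, DESeq2 adjusted p 0.0147), Lhx8 (2.11, 0.0218), Otp (3.84, 6.29e-07), Fezf1 (0.67, 0.00769), Pomc (-0.76, 0.0444), Cx3cr1 (1.49, 3.06e-06) and Csf1r (1.27, 3.09e-05) kept their calls, and Vax1 (0.84, 0.051) lost its own. In the other fits without 1 library, chosen after the data had been seen, Lhx6, Lhx8 and Fezf1 were called each time. Vax1 was also not called without control 2, Otp without Rx-Dicer 1 or Rx-Dicer 3, Pomc without control 2, control 3 or Rx-Dicer 1, and Cx3cr1 and Csf1r without control 2, control 3, Rx-Dicer 1 or Rx-Dicer 3, Csf1r also without control 1. With control 3 and the library labelled Rx-Dicer 2 both left out, Lhx6 (1.45, DESeq2 adjusted p 0.104) and Pomc (-0.69, 0.5) were not called. Lhx8, Vax1, Otp, Fezf1, Cx3cr1 and Csf1r were called in that fit, which called 2.17% of all tested genes. Of 7 diencephalic markers 6 were tested, 1 was called higher (Lhx1) and 0 lower. Lhx1 was at 468 ± 105 normalised counts in controls and 932 ± 297 in Rx-Dicer libraries (DESeq2 adjusted p 0.00393). Its log2 fold change was 1.22 without the library labelled Rx-Dicer 2, and called. It was not called by edgeR, or without control 2, control 3, Rx-Dicer 1 or Rx-Dicer 3. The list's sum overlapped, at 62.8 to 111 CPM in controls and 88.1 to 101 CPM in Rx-Dicer libraries. The part of the cells of these lists in the Pax6 difference was not tested.

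The factors of dorsal and medial pallium varied far more between libraries of a genotype than between genotypes. Emx1, a homeodomain factor restricted to the pallium, had 4764, 5286 and 2156 normalised counts in controls and 4291, 921 and 3615 in Rx-Dicer libraries. Control 3 and the library labelled Rx-Dicer 2 were each the lowest of their genotype. The log2 fold change was -0.47 ± 0.71 (95% interval -1.86 to 0.93, DESeq2 adjusted p 0.9), an estimate as large as that of Pax6 with an interval wide enough to hold a change in either direction. Without the library labelled Rx-Dicer 2 it was -0.04, without control 3 it was -0.77 and without Rx-Dicer 1 it was -0.84, none of them called.

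Emx2, the related factor that promotes caudal and medial cortical identity, had 9679, 8014 and 4997 normalised counts in controls and 7608, 5466 and 9840 in Rx-Dicer libraries. The genotypes overlapped almost completely, and the means were 7563 ± 2373 and 7638 ± 2187 (SD, n = 3 each). Its log2 fold change of 0.01 ± 0.24 had a 95% interval from -0.45 to 0.48 and a DESeq2 adjusted p of 0.994, and it lay from -0.21 to 0.23 when single libraries were left out, at 0.21 without the library labelled Rx-Dicer 2.

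Lhx2, a LIM homeodomain factor required for cortical identity, had 21165, 22363 and 14978 normalised counts in controls and 18014, 14071 and 20372 in Rx-Dicer libraries. Values of the genotypes overlapped, and the log2 fold change was -0.16 ± 0.18 (95% interval -0.51 to 0.20, DESeq2 adjusted p 0.847). It was -0.02 without the library labelled Rx-Dicer 2 and -0.32 without control 3, the ends of its range over the fits without 1 library.

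Dmrta2, a DM-domain factor that maintains cortical progenitors and the hem, had 7513, 7493 and 4579 normalised counts in controls and 6422, 3229 and 6758 in Rx-Dicer libraries. Its difference was -0.26 ± 0.40 (95% interval -1.03 to 0.52, DESeq2 adjusted p 0.903), and 0.02 without the library labelled Rx-Dicer 2. Dmrt3, the DM-domain relative enriched in medial pallium, had 1099, 996 and 179 normalised counts in controls and 1301, 347 and 1215 in Rx-Dicer libraries. Its values spanned 7.25-fold over the 6 libraries, the widest span of the 9 factors. The log2 fold change was 0.33 ± 0.88 (95% interval -1.39 to 2.05, DESeq2 adjusted p 0.958), and its sign turned to -0.13 without control 3. It was 0.74 without the library labelled Rx-Dicer 2.

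Sp8, a zinc finger factor of the rostral and medial telencephalon that acts with Fgf8, had 5385, 3738 and 2836 normalised counts in controls and 5163, 4284 and 5606 in Rx-Dicer libraries. Controls 2 and 3 were below every Rx-Dicer library, while control 1 lay among them. The means were 3986 ± 1293 and 5018 ± 673 (SD, n = 3 each), and the log2 fold change was 0.33 ± 0.21 (95% interval -0.07 to 0.74, DESeq2 adjusted p 0.549). Without control 1 it rose to 0.61 ± 0.18 and passed the rule with a DESeq2 adjusted p of 0.0324, in a fit that called 3.49% of all genes tested. Without control 3 it was 0.14 ± 0.20 with a DESeq2 adjusted p of 0.913, and without the library labelled Rx-Dicer 2 it was 0.44 and not called.

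Nr2f1, an orphan nuclear receptor (COUP-TFI) that promotes caudal and lateral cortical identity, had 1055, 3174 and 4310 normalised counts in controls and 2682, 4522 and 2628 in Rx-Dicer libraries. Control 1, the control with the most Sp8, had the least Nr2f1, 4.08-fold below control 3. The log2 fold change was 0.20 ± 0.61 (95% interval -0.99 to 1.39, DESeq2 adjusted p 0.964), and it turned to -0.19 without control 1 and to -0.10 without the library labelled Rx-Dicer 2. Nr2f2 (COUP-TFII), the relative that is high in caudal and ventral telencephalon, had 1446, 1094 and 3318 normalised counts in controls and 1896, 3397 and 1921 in Rx-Dicer libraries. Control 3 and the library labelled Rx-Dicer 2 were at similar levels, above the other 4 libraries. The log2 fold change was 0.30 ± 0.55 (95% interval -0.79 to 1.39, DESeq2 adjusted p 0.928). Without control 3 it was 0.92 ± 0.28 and was called, with a DESeq2 adjusted p of 0.0425 in a fit that called 2.17% of genes. Without the library labelled Rx-Dicer 2 it was -0.03, and with both libraries left out it was 0.59 with a DESeq2 adjusted p of 0.073.

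**Figure D2:**
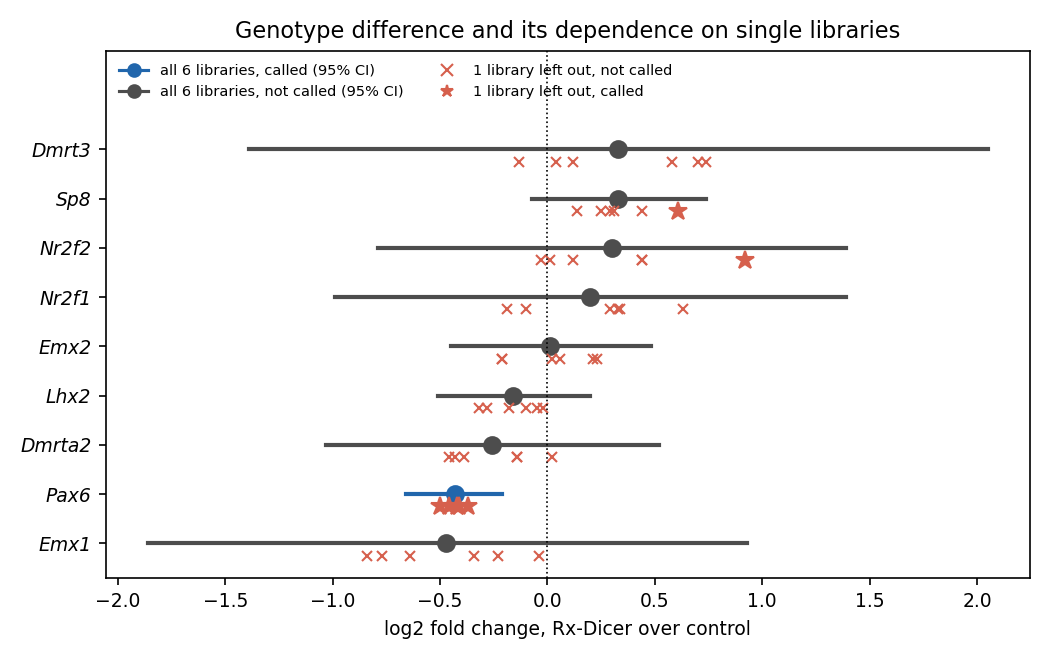
Log2 fold change of each factor, Rx-Dicer over control (horizontal axis), with its 95% interval from all 6 libraries (circles and lines) and the estimates with 1 library left out (crosses, or stars where called). The interval of Pax6 (-0.66 to -0.21) lies wholly below 0, those of the other 8 span 0, and stars stand beside Sp8 (0.61 without control 1) and Nr2f2 (0.92 without control 3) for a single left-out library each.

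The spread within genotypes set Pax6 apart from the rest. The within-genotype SD of log2 normalised counts was ranked among the 11607 tested genes with a mean of at least 200 normalised counts. It was 0.09 for Pax6, at the 22.2 percentile. For Dmrt3 it was 1.29 (99.6 percentile), for Emx1 0.99 (99.3), for Nr2f1 0.82 (98.9) and for Nr2f2 0.68 (98). Dmrta2 was at the 95.8, Emx2 at the 94.8, Sp8 at the 91.1 and Lhx2 at the 87 percentile. Each of these 8 factors thus varied more within genotypes than most genes of that set did.

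This spread was shared between factors. Control 3 was the lowest control for Emx1, Emx2, Pax6, Lhx2, Sp8, Dmrta2 and Dmrt3, and the highest for Nr2f1 and Nr2f2. The library labelled Rx-Dicer 2 stood in the same place within its genotype for all 9. Compared with the other controls, control 3 had a log2 level of -2.55 for Dmrt3, -1.22 for Emx1, -0.82 for Emx2 and -0.71 for Dmrta2, but -0.07 for Pax6, and 1.03 for Nr2f1 and 1.39 for Nr2f2. Compared with the other Rx-Dicer libraries, the library labelled Rx-Dicer 2 had -1.86 for Dmrt3, -2.10 for Emx1, -0.67 for Emx2 and -1.03 for Dmrta2, -0.17 for Pax6, and 0.77 and 0.83 for Nr2f1 and Nr2f2. The points share libraries, so the factors are not independent of each other here.

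Subpallial markers went the opposite way in the same libraries. The summed level of the 12 markers was 165, 177 and 344 CPM in controls and 151, 531 and 170 CPM in Rx-Dicer libraries, highest in control 3 and in the library labelled Rx-Dicer 2. Gsx2, a determinant of ventral progenitors, was at 310, 369 and 865 normalised counts in controls and 138, 1062 and 162 in Rx-Dicer libraries. Dlx2, which specifies ventral neurons, was at 1048, 1336 and 3044 in controls against 771, 4079 and 717 in Rx-Dicer libraries. The sum of 8 meningeal and head mesenchyme markers was 1208, 787 and 1825 CPM in controls and 1662, 1361 and 1229 CPM in Rx-Dicer libraries. That sum was highest in control 3 among controls, but not in the library labelled Rx-Dicer 2 among its genotype. Whether these 2 pieces held more ventral tissue, or control 3 more mesenchyme, was not tested.

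**Figure D3:**
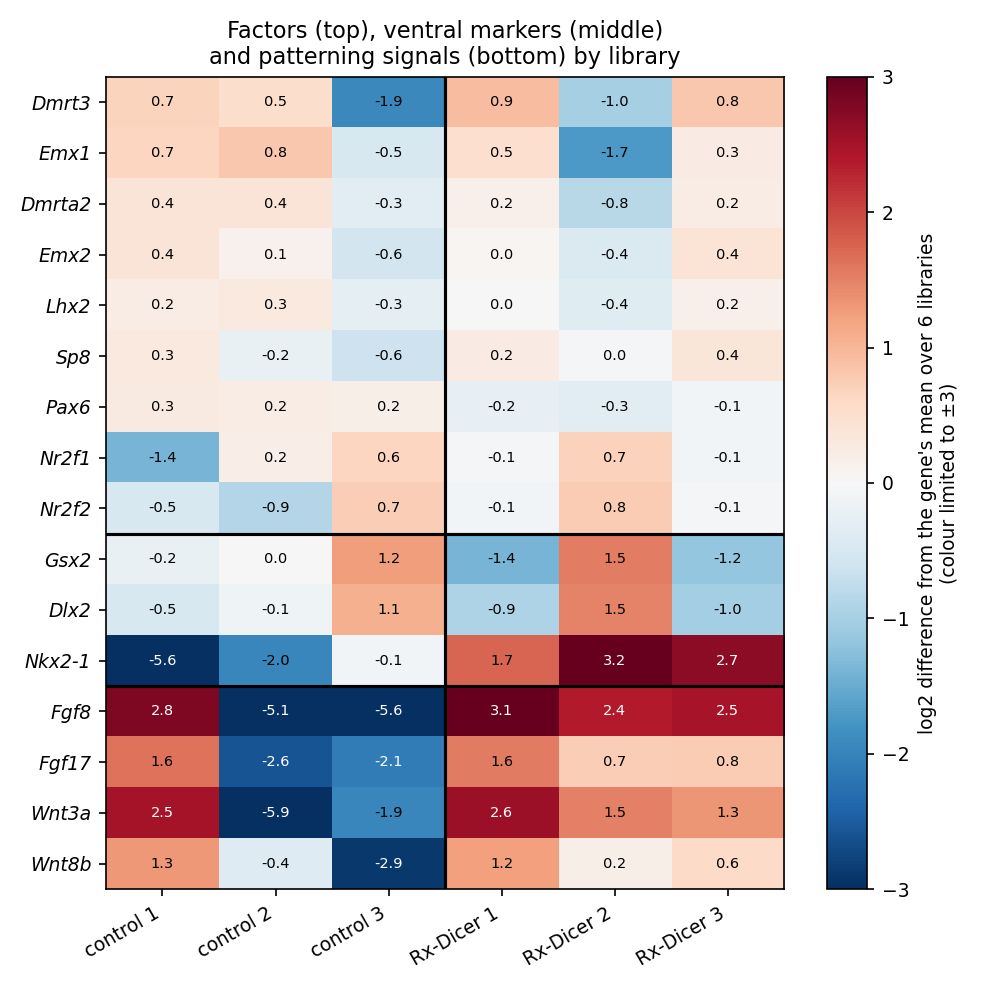
Log2 difference of each library from the gene's mean over 6 libraries (colour and printed value, computed on normalised counts plus 0.5) for the 9 factors (top), 3 ventral markers (middle) and 4 patterning signals (bottom). Control 3 and Rx-Dicer 2 (the library so labelled) are blue for Dmrt3, Emx1, Dmrta2, Emx2 and Lhx2 and red for Nr2f1, Nr2f2, Gsx2 and Dlx2, while controls 2 and 3 are blue for the signals Fgf8, Fgf17, Wnt3a and Wnt8b.

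The signals upstream of these factors separated the libraries along another line. Fgf8, the principal signal of the rostral midline, was at 838, 3.06 and 1.88 normalised counts in controls and 993, 621 and 662 in Rx-Dicer libraries. Controls 2 and 3 thus had almost no Fgf8 transcript, while control 1 was at the level of the Rx-Dicer libraries. Fgf17, its relative from the same source, was at 4720, 256 and 358 in controls against 4558, 2547 and 2612 in Rx-Dicer libraries. Wnt3a, a hem signal, was at 519, 1.02 and 23.5 in controls against 543, 261 and 231 in Rx-Dicer libraries. Wnt8b, made by medial pallium and hem, was at 5897, 1842 and 320 in controls against 5582, 2712 and 3575 in Rx-Dicer libraries. Sp8 was highest and Nr2f1 lowest in control 1 among the controls, the control that had Fgf8.

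Of 11 genes for signals of the midline and hem, 8 were tested and 0 were called in either direction by DESeq2 or edgeR. At an unadjusted p under 0.05 there was 1 in each. Over all tested genes DESeq2 called 2.93%, with 13.1% at an unadjusted p under 0.05. The median log2 fold change of those tested was 0.43. Fgf8, Fgf17 and Wnt3a received no adjusted p because DESeq2 set their tests aside for an outlying count. Without control 1, when controls 2 and 3 alone stood for the genotype, 5 of the list were called higher (Fgf8, Fgf17, Fgf18, Wnt3a and Bmp7), with a log2 fold change of 3.40 for Fgf17 and 1.28 for Bmp7. This is the same fit in which Sp8 was called, and it called 3.49% of all tested genes. The Sp8 call and the signals thus both turn on whether control 1 is counted. Whether the dissected pieces reached the midline to different extents was not tested.

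Genes that FGF signalling induces did not follow a single direction. Of 6 such genes 1 was called lower and 0 higher, against 1.18% and 1.75% of all tested genes, with a median of -0.12. Etv1, an ETS factor, was at 4966, 2174 and 2362 normalised counts in controls and 1685, 1601 and 1479 in Rx-Dicer libraries, or 0.502 of the control level (SE of 0.25 on the log2 scale, DESeq2 adjusted p 0.00794), and the call was lost when any 1 of the Rx-Dicer libraries was left out. The log2 fold change of Etv1 was then -1.04 to -0.95, and it was -0.52 without control 1, with a DESeq2 adjusted p of 0.00349, and -1.20 without control 2. Spry1, a feedback inhibitor, was at 4517, 1637 and 1506 in controls against 3666, 2578 and 2975 in Rx-Dicer libraries, with 0.27 ± 0.54 and a DESeq2 adjusted p of 0.937. Spry1 was thus lowest in controls 2 and 3, as Fgf8 was, whereas Etv1 was below the controls in all 3 Rx-Dicer libraries. With all libraries Etv4 (-0.45, DESeq2 adjusted p 0.203) and Etv5 (-0.50, 0.101) were also negative and not called, and 3 of the 6 genes were positive. Without control 1, Spry1 (0.97), Spry2 (0.72) and Dusp6 (0.50) were called higher and Etv1 lower, in a fit that called 3.49% of all tested genes. By edgeR with all libraries 0 of the 6 were called, with 3 at an unadjusted p under 0.05.

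Among 10 genes of the pallial neurogenic programme or known to depend on Pax6, all tested, 3 were called lower and 0 higher, against 1.18% and 1.75% of all tested genes. The median log2 fold change was -0.53, and 1 of 10 was positive. Like the other lists, this list was chosen with earlier results of these data known, so its excess over these shares is no independent result. Eomes (Tbr2), the marker of intermediate progenitors, was at 5752, 5499 and 4111 normalised counts in controls and 3273, 3120 and 3835 in Rx-Dicer libraries, with -0.59 ± 0.16 and a DESeq2 adjusted p of 0.0137. Fabp7, a radial glial fatty acid binding protein, was at 18594, 11207 and 10098 in controls against 9718, 6391 and 7473 in Rx-Dicer libraries, with -0.76 ± 0.22 and an adjusted p of 0.0307 by DESeq2. Cdh4 (R-cadherin) was at 2567, 2734 and 2621 in controls against 2134, 1885 and 1806 in Rx-Dicer libraries, with -0.44 ± 0.12 and an adjusted p of 0.0168 by DESeq2. Values of the genotypes did not overlap for any of these 3 genes, a pattern found in 19.3% of tested genes. The 3 were picked by calls on these same values, so the lack of overlap is no further evidence.

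**Figure D4:**
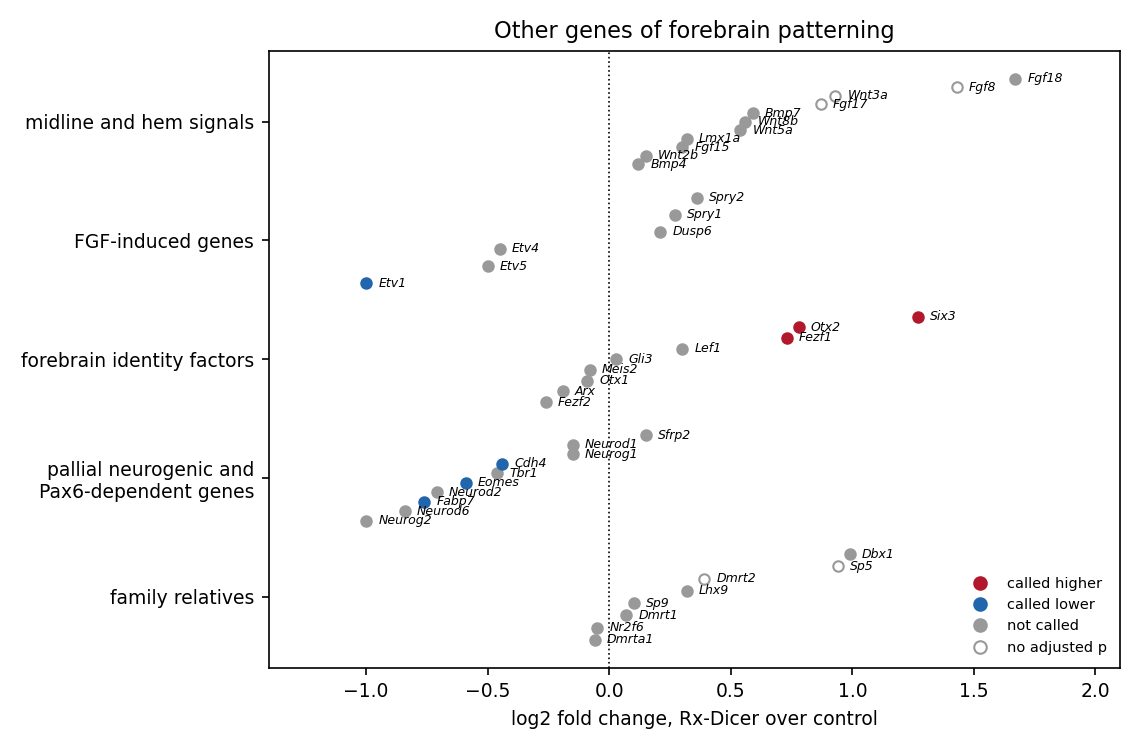
Log2 fold change, Rx-Dicer over control (horizontal axis), of genes of 5 lists around the factors, each dot a gene (red, called higher; blue, called lower; grey, not called; open, no adjusted p). Six3, Otx2 and Fezf1 are red, Etv1, Eomes, Fabp7 and Cdh4 are blue, and 9 of the 10 pallial neurogenic and Pax6-dependent genes lie left of 0.

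Neurog2, the proneural factor that Pax6 activates, had the lowest log2 fold change of the list and was not called. It was at 6177, 6080 and 2903 normalised counts in controls and 3323, 1485 and 2752 in Rx-Dicer libraries, so that control 3 lay within the Rx-Dicer range. With all libraries the Rx-Dicer level was 0.499 of that in controls, with an SE of 0.47 on the log2 scale and a DESeq2 adjusted p of 0.308. Without control 3 the log2 fold change was -1.28 with a DESeq2 adjusted p of 0.00123, and Neurog2 joined Eomes and Fabp7 as called lower. Sfrp2, a Wnt inhibitor that depends on Pax6, was at 1973, 1913 and 1870 in controls against 1751, 2025 and 2614 in Rx-Dicer libraries (0.15 ± 0.16, DESeq2 adjusted p 0.821), the gene of the list with a positive value. Single libraries decided the calls of this list. Eomes lost its call without control 1, control 2, Rx-Dicer 1 or the library labelled Rx-Dicer 2, at log2 fold changes of -0.72 to -0.50 over the 6 fits. Fabp7 lost it without control 1, control 2, Rx-Dicer 3 or the library labelled Rx-Dicer 2, at -0.94 to -0.44. Cdh4 lost it without control 2, control 3 or Rx-Dicer 3, at -0.52 to -0.39. With control 3 and the library labelled Rx-Dicer 2 both left out, the genes called lower were Eomes and Neurog2, and edgeR's quasi-likelihood test called 0 of the 10, with 4 at an unadjusted p under 0.05.

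Transcription factors of forebrain identity outside the 9 had their own calls, all higher. Of 10 tested, 3 were called higher and 0 lower, against 1.75% and 1.18% of all tested genes, with a median of 0.06. Six3, a rostral forebrain determinant, was at 1357, 684 and 1048 normalised counts in controls and 2177, 3018 and 2247 in Rx-Dicer libraries, with 1.27 ± 0.22 and a DESeq2 adjusted p of 6.27e-06. Fezf1, which represses caudal fate in the rostral forebrain, was at 1618, 1276 and 1524 in controls against 2043, 2646 and 2620 in Rx-Dicer libraries, with 0.73 ± 0.15 and an adjusted p of 5.19e-04 by DESeq2. Both kept their calls in all 6 fits without a library. Otx2, at 2107 ± 647 in controls against 3609 ± 933 in Rx-Dicer libraries (mean ± SD, n = 3 each), was called (0.78 ± 0.23, DESeq2 adjusted p 0.0311) and lost that call without control 2, control 3, Rx-Dicer 3 or the library labelled Rx-Dicer 2. By edgeR 0 of the 10 were called, with 3 at an unadjusted p under 0.05. Gli3, the repressor that sets dorsal against ventral, was at 14183 ± 1338 and 14447 ± 1656, a difference of 0.03 ± 0.13 with a DESeq2 adjusted p of 0.981.

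The closest relatives of the factors gave no call with all 6 libraries. Of 8 such genes 6 were tested, and 0 passed in either direction by DESeq2 or edgeR, against 2.93% of all tested genes by DESeq2. There were 0 at an unadjusted p under 0.05, against 13.1% by DESeq2, and the median was 0.09. Sp5 was at 370, 23.4 and 5.64 normalised counts in controls and 371, 183 and 213 in Rx-Dicer libraries, high in control 1 as Fgf8 was. Without control 1, Sp5 (4.15, DESeq2 adjusted p 8.86e-12) and Dbx1 (2.16, 2.39e-05) were called higher, in the fit that called 3.49% of all tested genes. Sp9, the relative of Sp8 in ventral cells, was at 175, 240 and 569 in controls against 155, 817 and 81.8 in Rx-Dicer libraries, highest in control 3 and the library labelled Rx-Dicer 2 as Dlx2 was, and its log2 fold change turned from 0.10 to -1.46 (DESeq2 adjusted p 0.0814) without the latter. Dmrta1, the relative of Dmrta2, was at 3573, 2845 and 1567 in controls against 2767, 1495 and 3402 in Rx-Dicer libraries, lowest in the same libraries as Dmrta2, with a log2 fold change of -0.06 that was 0.22 without the library labelled Rx-Dicer 2.

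The factors differed widely in abundance. Per kilobase of exon, controls had 104 ± 20 CPM of Lhx2 (mean ± SD, n = 3), 59.3 ± 18.5 of Emx2, 52.5 ± 13.2 of Dmrta2 and 43.7 ± 17.6 of Emx1. Sp8 had 20.6 ± 6.77 CPM per kilobase, Pax6 14 ± 0.55, Nr2f1 13.2 ± 7.71, Dmrt3 7.28 ± 4.83 and Nr2f2 5.36 ± 3.35. Between neighbours in this order, the control ranges were apart for Lhx2 and Emx2 and for Sp8 and Pax6, and overlapped for every other pair. Exons of all annotated transcripts were joined for the length, which for Pax6 came to 11694 bases against a median of 2779 for its 11 coding transcripts. The order depends on this choice. By the median length of coding transcripts Lhx2 (390 CPM per kilobase) and Emx2 (79.2) stayed first and second, Nr2f1 (67.6) moved from rank 7 to 3, Dmrta2 (52.5) from 3 to 6, and Pax6 (59) passed Sp8 (36.1), which reverses that pair.

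**Figure D5:**
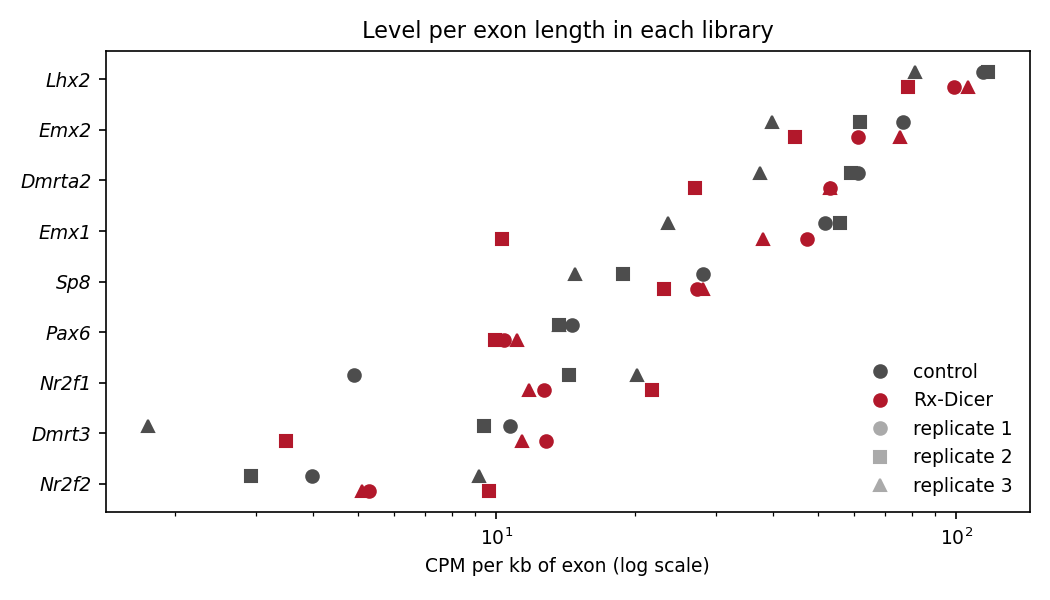
Level of each factor in each library as CPM per kilobase of joined exons (horizontal log axis), with controls in grey, Rx-Dicer libraries in red and marker shape for the replicate number. Lhx2 stands highest at 78.6 to 117, the Pax6 points are narrow, at 13.7 to 14.6 in controls against 9.96 to 11.1 in Rx-Dicer libraries, and Dmrt3 ranges from 1.75 to 12.8.

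Ratios between factors, which do not depend on library scaling, also overlapped between genotypes. Pax6 over Lhx2, in CPM per kilobase, was 0.128, 0.116 and 0.169 in controls against 0.106, 0.127 and 0.104 in Rx-Dicer libraries. Emx1 over Emx2 was 0.677, 0.907 and 0.593 in controls against 0.775, 0.232 and 0.505 in Rx-Dicer libraries. Sp8 over Nr2f1, the rostral over the caudal factor, was 5.7, 1.32 and 0.735 in controls against 2.15, 1.06 and 2.38 in Rx-Dicer libraries, so that the controls alone covered the whole range of the Rx-Dicer libraries.

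The factors lie apart in the mouse genome, and all positions here are on assembly GRCm38. Pax6 (ENSMUSG00000027168, chromosome 2, 105668900 to 105697364) and Lhx2 (ENSMUSG00000000247, chromosome 2, 38339281 to 38369733) are on the plus strand, as are Emx1 (ENSMUSG00000033726, chromosome 6, 85187438 to 85204462) and Sp8 (ENSMUSG00000048562, chromosome 12, 118846329 to 118852576). Emx2 (ENSMUSG00000043969, 59458372 to 59465357) and Dmrt3 (ENSMUSG00000042372, 25610301 to 25623921) lie on the plus strand of chromosome 19, and Dmrta2 (ENSMUSG00000047143, 109978053 to 109983687) on that of chromosome 4. Nr2f1 (ENSMUSG00000069171, chromosome 13, 78188973 to 78199757) and Nr2f2 (ENSMUSG00000030551, chromosome 7, 70351944 to 70366735) are on the minus strand.

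Of the 16 genes that overlap a factor or lie within 10 kb of it, 10 were tested and 0 were called by DESeq2 or edgeR. At an unadjusted p under 0.05 there were 0 by DESeq2 and 2 by edgeR. Over all tested genes, 2.93% were called by DESeq2 and 0.0446% by edgeR. The shares at an unadjusted p under 0.05 were 13.1% and 12.9%. Reads were counted by strand, and how many reads of a factor reach the opposite strand in these libraries was not tested, so low antisense counts are uncertain. Emx2os, antisense to Emx2, was at 794, 747 and 436 normalised counts in controls and 713, 461 and 800 in Rx-Dicer libraries, with the lowest values in the libraries where Emx2 was lowest. Dmrta2os, which begins 239 bases from Dmrta2 on the other strand, was at 575, 653 and 275 in controls against 389, 142 and 386 in Rx-Dicer libraries, again with the lowest values in control 3 and the library labelled Rx-Dicer 2. Antisense to Nr2f1, A830082K12Rik was at 110, 225 and 249 in controls against 248, 245 and 203 in Rx-Dicer libraries, lowest in control 1 as Nr2f1 was. These transcripts thus had their lowest libraries in common with the factor beside them.

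Around Pax6, the antisense transcript Pax6os1 was at 35.4, 50.9 and 23.5 normalised counts in controls and 18.9, 14.3 and 24.7 in Rx-Dicer libraries (-0.92 ± 0.52, DESeq2 adjusted p 0.458). Paupar, a long non-coding RNA upstream of Pax6, was at 14.7, 26.5 and 13.2 in controls against 7.72, 12.2 and 4.75 in Rx-Dicer libraries (-1.14 ± 0.72, DESeq2 adjusted p 0.556). Elp4, whose introns hold Pax6 enhancers, was at 1628 ± 12.2 and 1499 ± 67.6 (mean ± SD, n = 3 each), a difference of -0.12 ± 0.11 with a DESeq2 adjusted p of 0.791. All 3 estimates were negative and none passed the test.

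For each factor the 2 protein-coding genes with the nearest profile over the 6 libraries were found among 10997 genes, by the mean absolute difference of centred log2 values. The genes nearest to Pax6 were Cox7a2l, at 5109, 4887 and 4809 normalised counts in controls and 3717, 3489 and 3882 in Rx-Dicer libraries (mean difference 0.027), and Nabp2 (0.038). For Emx1 they were Slc17a7 (0.224) and Hopx (0.225), for Emx2 Socs2 (0.070) and Dach1 (0.072), and for Lhx2 Ftl1-ps1 (0.047) and Fbxo6 (0.057). For Dmrta2 they were Chst2 (0.074) and Gas1 (0.091), and for Dmrt3 Mmd2 (0.206) and Prr15 (0.311). Sp8 was nearest to Tob1 (0.074) and Lef1 (0.079), Nr2f1 to Adamts20 (0.164) and Gli1 (0.242), and Nr2f2 to Tfap2b (0.137) and Foxd2 (0.160). The profiles rest on 6 libraries, and a small difference for a gene that varies little is easier to reach than for a gene such as Dmrt3.

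Because Dicer makes miRNAs, the annotated 3′ UTRs of the factors were searched for words that pair with the seeds of 5 miRNAs known from the embryonic brain, a set chosen after the data had been seen. Their mature sequences follow from RefSeq (GRCm38.p6), with the seed, bases 2 to 8, in capitals. They are shown because the seed fixes the word that was searched, and each has a seed of its own.
mmu-let-7a-5p: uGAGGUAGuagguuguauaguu
mmu-miR-9-5p: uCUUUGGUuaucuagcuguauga
mmu-miR-7a-5p: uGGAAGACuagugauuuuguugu
mmu-miR-92b-3p: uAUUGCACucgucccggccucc
mmu-miR-125b-5p: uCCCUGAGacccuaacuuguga

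The words were, in the same order, CTACCTCA, ACCAAAGA, GTCTTCCA, GTGCAATA and CTCAGGGA, the reverse complement of the seed followed by A, read on the transcript strand. They were found in the longest annotated 3′ UTR of 3.78%, 4.74%, 4.19%, 2.87% and 5.67% of 14061 tested genes. Of the 9 factors, 1 held any of these words, Sp8 with ACCAAAGA. With the final A left off, the let-7a word CTACCTC stood in Sp8 and the miR-7a word GTCTTCC in Pax6, words that 10.8% and 14% of genes hold. The 3 stretches are shown with the word in capitals, because they are all the matches found in the factors.
Sp8, miR-9 word, chr12:118852318-118852347, plus strand: gtctctaaacagccACCAAAGAaaagaaag
Sp8, let-7a word, chr12:118850707-118850736, plus strand: gtgtttgtctttttCTACCTCggttttttc
Pax6, miR-7a word, chr2:105696996-105697025, plus strand: aaatgtaagtatttGTCTTCCctagaaatc

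The Sp8 words begin at bases 2460 and 849 of a 3′ UTR of 2704 bases, and the Pax6 word at base 655 of 1009. A match is a stretch of letters and not a shown site. Sp8, with words for 2 of the miRNAs, had a log2 fold change of 0.33 that did not pass the test, and Pax6, with its word, had one of -0.43. The other 7 factors, with 3′ UTRs of 282 bases in Emx1 to 2713 in Nr2f2, held none of the 5 words at either length, which says no more than that these letters are not in the annotated stretch. Levels of the miRNAs themselves were not analysed here.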

How the data were processed

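RNA-seq was made from 6 samples, 3 per genotype, with directional libraries read as pairs of 100 bp. The deposited values were raw counts per gene. According to the study's methods and the submitters' processing notes, the authors trimmed reads with Trim Galore 0.6.5, aligned them to GRCm38.p6 with HISAT2 and counted them per gene by strand with HTSeq 0.12.4. Each sample had 2 files, 12 in all, which were summed. Rows that name no gene, 24.9 to 31% of the tallied reads, stayed out of all totals and tests. Totals on genes were 34471501 to 48373468.

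Samples were grouped by title, and genotypes were compared with the DESeq2 1.42.0 Wald test in R 4.3.3 (median-of-ratios size factors, genotype as the only term, unshrunken log2 fold change, Benjamini-Hochberg adjustment over all genes with independent filtering). Genes were called at an adjusted p under 0.05 with a log2 fold change beyond 0.32 in size. The first alternative was edgeR 4.0.16, quasi-likelihood, scaled by TMM, on genes that reached 10 counts in 3 or more samples. Both were tested on simulated data. Other alternatives changed the scaling, filters, threshold, files, replicate block, length and GC correction, and samples. Fits without 2 libraries, and leave-out fits for the lists and markers, were chosen after seeing the data. Positions, lengths and 3′ UTRs came from GENCODE on the same assembly, which held 55144 of 55471 identifiers.

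The factors, the gene lists and the markers were chosen with earlier results of these data known. Genes named are the 9 factors, their neighbours within 10 kb, list genes that were called or that a result turns on, the 2 nearest profiles of each factor among coding genes with a mean of at least 200 normalised counts, and Dicer1. Gsx2, Dlx2, Gli3, Sfrp2, Neurog2, the signals and the relatives described were singled out after their values were seen. The list counts include 1 gene that is not reported by name.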

Additional observations from a re-analysis of the deposited data

How the results depend on the processing

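Under 21 alternatives for each of the 9 factors, 189 values in all, 173 kept both direction and side of the threshold. Pax6 was the sole factor called in the fits with other scalings, filters, gene sets, thresholds, single files and the length and GC correction. It was not called by edgeR's quasi-likelihood test (-0.43), under the replicate block (-0.44, DESeq2 adjusted p 0.0598), or with control 3 and the library labelled Rx-Dicer 2 both left out (-0.40 by either tool), so that in these 4 fits 0 factors were called, and the cause was not tested. Under the block 314 genes were called in all, against 502. The replicate block with the length and GC correction called 1. The numbers do not pair the samples: same-number pairs had correlations of 0.27, -0.06 and -0.29 over 12896 genes, and not every sample correlated best with its own number.

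Fits without 1 library called 0 to 2 factors. Their log2 fold changes ran from -0.84 to -0.04 for Emx1, -0.32 to -0.02 for Lhx2, 0.14 to 0.61 for Sp8, -0.21 to 0.23 for Emx2, -0.19 to 0.63 for Nr2f1, -0.03 to 0.92 for Nr2f2, -0.46 to 0.02 for Dmrta2 and -0.13 to 0.74 for Dmrt3. In them the sign turned for Nr2f1 (-0.19 without control 1, -0.10 without the library labelled Rx-Dicer 2), Emx2 (-0.21 without control 3 or Rx-Dicer 3), Dmrt3 (-0.13 without control 3), Nr2f2 (-0.03) and Dmrta2 (0.02), the last pair without the library labelled Rx-Dicer 2. With both libraries left out Emx2 was -0.02 by DESeq2 and -0.01 by edgeR. Between genotypes 1 factor was separated under each scaling. The 5 lists held 11, 6, 10, 10 and 8 genes, of which 7 were called, and 0 by edgeR. Without 1 library 3 to 15 were called, and without both 4 (DESeq2) or 0 (edgeR). The highest, 15, came without control 1, and 3 came without control 2, without the library labelled Rx-Dicer 2 and without Rx-Dicer 3. Of all tested genes DESeq2 called 2.93% with all libraries, 3.49% without control 1, 1.53% without control 2 and 2.17% without both. The share by edgeR was 0.0446% with all libraries. Depth limited no factor, and 3 libraries per genotype limit the precision of all.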
